A study of Caenorhabditis elegans with 2 samples.

Results

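The cytosolic chaperonin CCT, also called TRiC, is a double-ring machine that folds newly made proteins with the energy of ATP. Each ring holds 8 different subunits, and actin and tubulin are its best known clients. Prefoldin and the Hsp70 system hand substrates to it. In C. elegans each subunit has its own gene, cct-1 to cct-8, annotated by RefSeq as the alpha, beta, gamma, delta, epsilon, zeta, eta and theta subunit in that order. These 8 genes, of 19973 protein-coding genes on the 6 nuclear chromosomes, were taken by name. The rule uses no measured value, but the family was picked with earlier results of these data known. All 8 were found in the annotation.

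Chromatin immunoprecipitation with sequencing had been done on whole first-stage (L1) larvae of Caenorhabditis elegans. There was 1 group of 2 biological replicates, with larvae of mixed sex. The strain, OP49 from the CGC stock centre, carries the mutation unc119(ed3) and the transgene wgIs49. The transgene holds lin-13 with TY1, EGFP and FLAG tags beside a copy of unc119, and both replicates share all of these. The labels describe the target as eGFP-lin-13 and also give lin-13 as the antibody, so the antigen is not fully stated, and the larvae are a mixture of all tissues. The labels state neither the promoter of the transgene nor the state of the endogenous lin-13 gene, and they give the age as unknown. LIN-13, a zinc finger factor, belongs to the synMuv B genes, which limit vulval cell fates and keep germline genes off in somatic cells. With 1 group there is no test between conditions, and values below describe where calls lay and how the replicates compared.

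The authors deposited lists of calls, each with a summit and a signal, their own score of the call, whose scale is not stated. There were 2333 reproducible peaks, the lowest with a signal of 48.2, and these were the 2333 strongest of 30000 pooled calls. Each replicate had a list of 30000 calls, background included, of which 2475 in replicate 1 and 5192 in replicate 2 had a q-value under 0.05. Read depth is unknown, and the control that the calls were made against was not analysed here. Fewer cells with LIN-13 at a site and less of it per cell cannot be told apart in whole larvae.

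Of the 8 subunit genes, 5 had a reproducible peak just upstream, cct-1, cct-5, cct-6, cct-7 and cct-8, and cct-2, cct-3 and cct-4 had none. A gene counted if any of its annotated 5′ ends had a summit no more than 500 bp away. That is 62.5% of the members, against 8.62% of all protein-coding genes (95% exact binomial interval 8.23 to 9.01, counting error only). In the wider search, over the gene body and 2 kb around every 5′ end, the same 5 genes had a reproducible summit, against 15.0% of all genes. Each had exactly 1 such summit, and it was the one near the 5′ end. Other definitions gave the same count of 5. These were a window of 1000 bp (10.9% of all genes) or 2000 bp (14.6%), and pooled calls with a q-value under 0.05 (11.2%). The 5′-most end only (8.21%) and overlap of the peak interval (9.41%) also gave 5. All but the 5′-most end rule could only keep or add genes. With a window of 250 bp the count was 1 of 8 (5.65%), and with the nearest 5′ end only it was 0 of 8 (6.59%). With the 1166 strongest peaks 4 of 8 remained, against 4.94%, and cct-5 was lost. For the gene body, windows of 500 bp (9.89%) and 1000 bp (11.8%) also gave 5, and the 1166 strongest peaks gave 4 (8.58%).

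The sequences under the strongest promoter call of 7 members are printed first, because the calls share short words there. The windows of cct-2 and cct-4 lie under weak pooled calls, and the other 5 under reproducible peaks. Each runs 100 bases to either side of the pooled summit, read from the RefSeq copy of WBcel235 (ce11), 5′ to 3′ on the coding strand of the CCT gene. No pooled call lay within 500 bp of the cct-3 5′ end, so none is shown for it. Capitals mark the words GAANNTTC and TTCNNGAA, the inverted repeats at the core of heat shock elements, and the words GGGTCTCNNCACG and GACGCGCAANTG, on either strand.

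cct-1, chrII:8185096-8185296, plus strand: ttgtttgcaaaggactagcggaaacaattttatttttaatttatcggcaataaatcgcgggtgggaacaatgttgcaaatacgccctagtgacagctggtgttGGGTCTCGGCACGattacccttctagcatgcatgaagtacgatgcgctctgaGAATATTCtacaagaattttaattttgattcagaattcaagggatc

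cct-8, chrIV:1094251-1094451, minus strand: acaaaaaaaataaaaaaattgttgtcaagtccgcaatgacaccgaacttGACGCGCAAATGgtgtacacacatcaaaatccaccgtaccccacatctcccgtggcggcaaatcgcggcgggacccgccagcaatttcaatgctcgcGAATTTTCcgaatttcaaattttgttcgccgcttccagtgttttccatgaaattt

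cct-6, chrIII:5855862-5856062, minus strand: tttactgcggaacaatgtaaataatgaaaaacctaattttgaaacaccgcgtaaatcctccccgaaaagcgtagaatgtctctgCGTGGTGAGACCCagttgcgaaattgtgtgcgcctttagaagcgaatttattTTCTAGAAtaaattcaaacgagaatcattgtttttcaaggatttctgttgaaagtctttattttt

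cct-7, chrV:1871884-1872084, plus strand: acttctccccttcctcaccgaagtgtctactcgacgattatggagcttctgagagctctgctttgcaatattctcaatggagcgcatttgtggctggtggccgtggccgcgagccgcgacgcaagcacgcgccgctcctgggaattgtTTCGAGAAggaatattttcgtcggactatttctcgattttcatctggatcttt

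cct-5, chrIII:4508411-4508611, minus strand: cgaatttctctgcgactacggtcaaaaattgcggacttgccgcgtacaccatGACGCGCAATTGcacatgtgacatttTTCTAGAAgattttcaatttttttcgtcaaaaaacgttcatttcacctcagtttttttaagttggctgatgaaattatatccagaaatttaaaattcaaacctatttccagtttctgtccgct

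cct-2, chrII:8927349-8927549, plus strand: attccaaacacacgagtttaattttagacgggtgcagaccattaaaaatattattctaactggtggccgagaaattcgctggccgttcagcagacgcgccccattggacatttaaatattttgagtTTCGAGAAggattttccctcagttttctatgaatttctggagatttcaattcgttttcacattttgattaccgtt

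cct-4, chrII:8283322-8283522, plus strand: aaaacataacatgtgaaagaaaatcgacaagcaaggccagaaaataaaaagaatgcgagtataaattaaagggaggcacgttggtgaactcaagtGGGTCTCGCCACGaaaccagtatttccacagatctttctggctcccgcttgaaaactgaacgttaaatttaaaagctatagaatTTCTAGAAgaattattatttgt

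The strongest of the 5 peaks was at cct-1, the alpha subunit gene (WBGene00000377, chrII:8185443-8187601, plus strand). Its pooled call spanned chrII:8185130-8185281 with a signal of 307 and rank 74. In replicate 1 the call had a signal of 156 and rank 64, and in replicate 2 a signal of 152 and rank 99. The summit lay 247 bp upstream of the 5′ end, and the replicate summits were 1 bp apart. Of the 1721 genes with a reproducible promoter peak, 95.6% had a lower signal.

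At cct-8, the theta subunit gene (WBGene00021934, chrIV:1087108-1093920, minus strand), the pooled call at chrIV:1094294-1094442 had a signal of 273 and rank 102. It had a signal of 118 and rank 128 in replicate 1, and 156 and rank 90 in replicate 2. The summit was 431 bp upstream, the farthest of the 5, and the replicate summits were 22 bp apart. The calls at cct-1 and cct-8 were 152 and 149 bp wide, and the other 3 were each 324 bp wide. Of genes with a reproducible promoter peak, 94.2% had a lower signal than cct-8.

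The genes for the zeta and eta subunits carried peaks of nearly equal rank. At cct-6 (WBGene00000381, chrIII:5853530-5855687, minus strand) the call at chrIII:5855800-5856123 had a pooled signal of 150 and rank 397. Replicate 1 gave 69.2 and rank 399, and replicate 2 gave 82.0 and rank 407, the closest pair of ranks among the 5 genes. At cct-7 (WBGene00020391, chrV:1872246-1875505, plus strand) the call at chrV:1871822-1872145 had a pooled signal of 143 and rank 433. Replicate 1 gave 69.5 and rank 395, and replicate 2 gave 74.9 and rank 485. The summits lay 275 and 262 bp upstream, and the cct-7 summit fell inside the annotated non-coding RNA gene T10B5.13, whereas the other 4 lay between genes. The replicate summits were 38 bp apart at cct-6 and 3 bp apart at cct-7.

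The weakest reproducible peak was at cct-5, the epsilon subunit gene (WBGene00000380, chrIII:4499188-4508114, minus strand), and the replicates differed most there. The pooled call at chrIII:4508349-4508672 had a signal of 69.4 and rank 1416, with its summit 397 bp upstream. In replicate 1 it was a strong call, with a signal of 47.6 and rank 792. In replicate 2 it had a signal of 19.8 and rank 3538, with a q-value under 0.05 but outside that list's 2333 strongest calls. The ranks differed 4.47-fold and the summits were 68 bp apart. Over the 2185 reproducible peaks matched within 100 bp in both replicates, the median rank ratio was 1.51 and the median summit distance 19 bp, and 6.32% of them had a rank ratio at least as large as that of cct-5. Taken from the 2333 strongest calls of replicate 2, without replicate 1, the count of genes was 4 of 8, against 8.43% of all genes, and cct-5 was the gene lost. From those of replicate 1 it was 5 of 8, against 8.34%. In the gene body or within 2 kb, each replicate gave 5 of 8, against 14.8% of all genes for replicate 2 and 14.7% for replicate 1. In replicate 2 cct-5 was then counted through a call in an intron, described with the gene bodies.

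**Figure D1:**
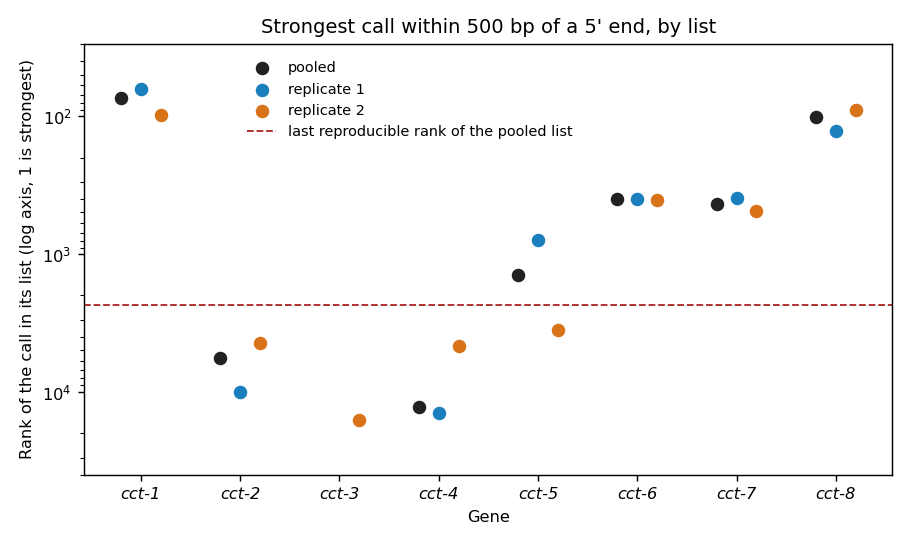
Rank of the strongest call within 500 bp of a 5′ end of each CCT gene, on a log axis with the strongest call at the top, in the pooled list (black), replicate 1 (blue) and replicate 2 (orange). The dashed line is rank 2333, the last reproducible call of the pooled list. The 3 points of cct-1, cct-6, cct-7 and cct-8 lie close together above it, those of cct-5 lie on both sides of it, and every point of cct-2, cct-3 and cct-4 lies below it; cct-3 had a call in replicate 2 only.

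The 3 genes without a reproducible peak differed in what lay near their starts. At cct-2, the beta subunit gene (WBGene00000378, chrII:8927741-8929815, plus strand), a pooled call 292 bp upstream had a signal of 27.6 and rank 5678. Replicate 2 had a call there with a signal of 17.1, rank 4459 and a q-value under 0.05, while the strongest call of replicate 1 was at an offset of -461 bp with a signal of 13.6 and rank 10035. At cct-4, the delta subunit gene (WBGene00000379, chrII:8283667-8285711, plus strand), a pooled call 245 bp upstream had a signal of 19.7 and rank 12810. Replicate 2 had a call there with a signal of 16.6, rank 4678 and a q-value under 0.05, and replicate 1 had its strongest call at an offset of -88 bp with a signal of 12 and rank 14345. Both genes thus had a weak call in replicate 2 with no counterpart within 100 bp in replicate 1, and both pooled calls were below the lowest reproducible signal of 48.2. At cct-3, the gamma subunit gene (WBGene00018782, chrII:2233540-2243539, plus strand), the pooled list and replicate 1 had no call within 500 bp, and replicate 2 had 1 of rank 16083, 431 bp downstream of the 5′ end. With every pooled call counted, background included, 7 of the 8 genes had one within 500 bp, against 39.2% of all genes.

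**Figure D2:**
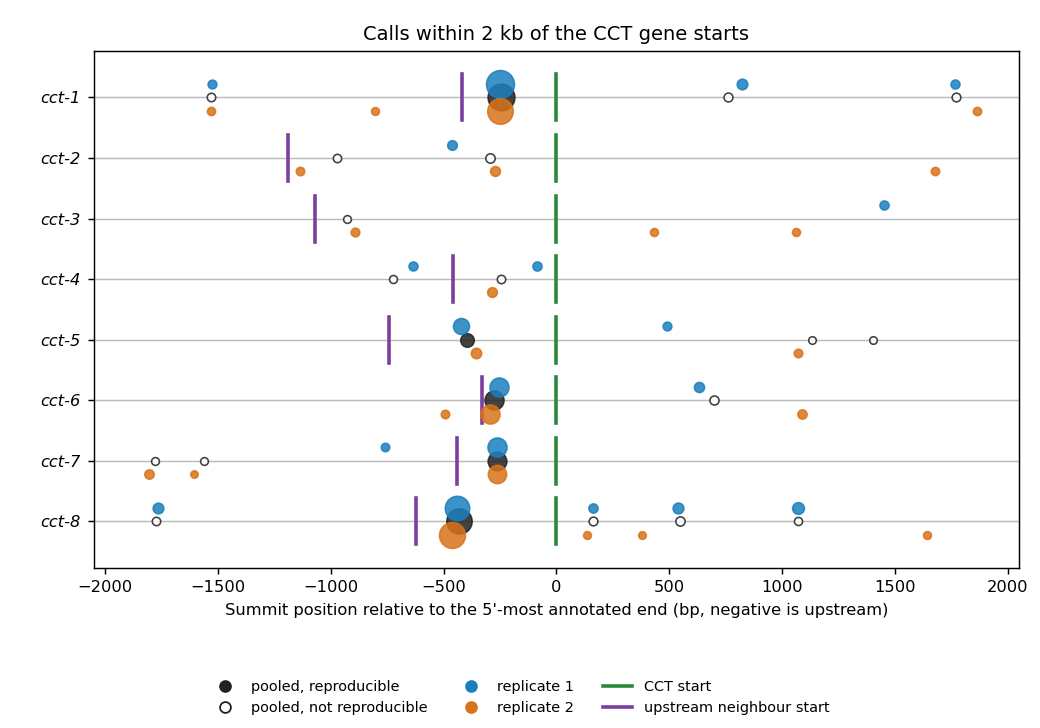
Calls within 2 kb of the 5′-most annotated end (green bar) of each CCT gene, by distance in bp along the gene's strand. Filled black points are reproducible peaks, open black points other pooled calls, blue points replicate 1 and orange points replicate 2, and point size grows with signal as a percentage of the strongest call of its list. Purple bars mark the start of the upstream neighbour. The reproducible peaks lie between the purple and green bars, at -247 bp for cct-1, -397 bp for cct-5, -275 bp for cct-6, -262 bp for cct-7 and -431 bp for cct-8.

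Every reproducible peak of the family lay between a CCT gene and a neighbour transcribed away from it. All 8 CCT genes have an upstream neighbour on the opposite strand, a share not counted over all genes. For 6 of the 8 the neighbour's 5′ end is within 1000 bp, as it is for 3531 of the 19973 protein-coding genes. A reproducible peak was present at 5 of these 6, against 24.4% of 3531 genes in the same head-to-head arrangement. It was present at neither of the remaining genes, cct-2 and cct-3, whose upstream neighbours B0457.2 and F54A3.6 lie 1189 and 1069 bp away, against 5.24% of the 16442 genes with no such neighbour. The exception among the 6 was cct-4, with 459 bp between its 5′ end and that of nst-1, which encodes a nucleostemin-family GTP-binding protein.

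The summits were nearer to the neighbour than to the CCT gene. At cct-1 the pooled summit was 173 bp from the 5′ end of mig-5, a Dishevelled homolog of Wnt signalling, and 247 bp from that of cct-1. At cct-8 it was 190 bp from Y55F3AR.2, annotated as a thioredoxin domain protein, and 431 bp from cct-8. At cct-6 it was 56 bp from alh-9, an aldehyde dehydrogenase gene, and 275 bp from cct-6. At cct-7 it was 177 bp from T10B5.4, annotated with an N-acetyltransferase domain, and 262 bp from cct-7. At cct-5 it was 344 bp from F25F2.1, a predicted kinase, and 397 bp from cct-5. For 4 of the 5 pairs both replicate summits were also on the neighbour's side of the midpoint, from 11.8% to 40.5% of the way to the CCT gene, but at cct-5 the replicate 2 summit was at 52.0% and the replicate 1 summit at 42.8%.

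Which gene of a pair a peak belongs to cannot be told from its position, and the count depends on how it is assigned. With a summit assigned to the single closest 5′ end, 0 of the 8 CCT genes had a peak, against 6.59% of all genes; of the 860 head-to-head genes with a peak, 56.4% kept it under that rule. Trans-splicing removes the first bases of many worm transcripts, and the annotated 5′ end is then not where transcription began. With a window of 250 bp only cct-1 was counted, 1 of 8, against 5.65% of all genes. Over the 1721 genes with a reproducible promoter peak the median offset was -180 bp (quartiles -283 and -95 bp), while the 5 CCT offsets ranged from -431 to -247 bp with a median of -275 bp. The median signal of the 5 was 150, against 87.8 over the 1721 genes (quartiles 63.6 and 138).

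**Figure D3:**
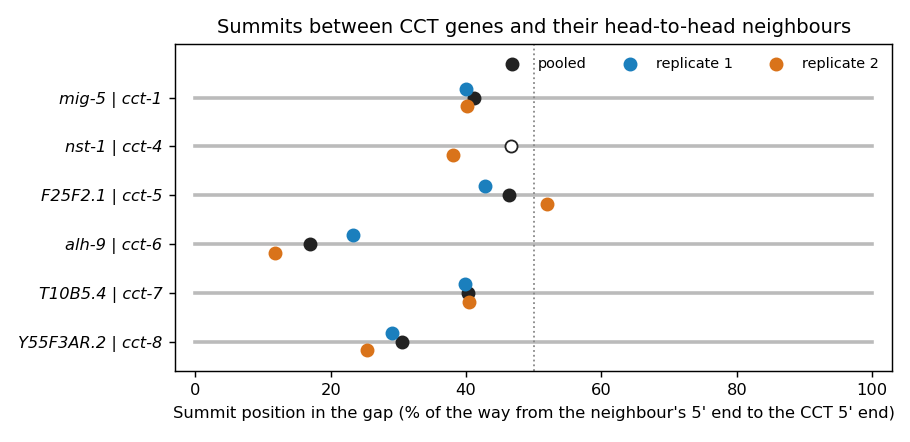
Position of the summit between the 5′ end of the neighbour (0%) and that of the CCT gene (100%) for the 6 head-to-head pairs, in the pooled list (black, open where the call is not reproducible), replicate 1 (blue) and replicate 2 (orange). All 6 pooled summits lie below 50%, from 16.9% at cct-6 to 46.6% at cct-4. Among the points shown, only the replicate 2 summit of cct-5 is past the dotted midpoint. No replicate 1 point is shown for cct-4, because no call lay within 100 bp of the pooled summit. The strongest replicate 1 call there, at an offset of -88 bp, is nearer to cct-4 than to the neighbour.

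**Figure D4:**
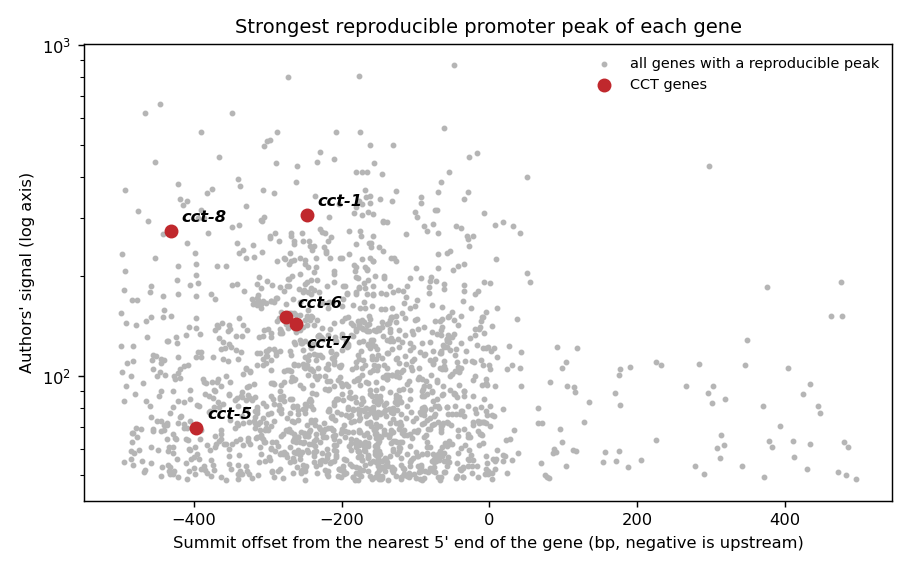
The authors' signal (log axis) against the offset of the summit from the nearest 5′ end of the gene for the strongest reproducible promoter peak of each of 1721 genes (grey), with the 5 CCT genes in red. The CCT peaks lie between -431 and -247 bp, with signals from 69.4 at cct-5 to 307 at cct-1. The offsets of cct-1, cct-6 and cct-7 are within the quartiles of the 1721 genes, -283 and -95 bp.

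Downstream, 5 of the 8 genes are followed on the same strand by another gene 25 to 260 bp away. Operons have this arrangement, but the annotation used here marks none. The share of all genes with such a neighbour was not counted, so 5 of 8 cannot be called unusual. The gap was 25 bp between cct-2 and mrpl-50, a mitochondrial ribosomal protein gene, and 94 bp between cct-8 and csn-4, a COP9 signalosome subunit gene. It was 102 bp between cct-3 and F54A3.2, 142 bp between cct-5 and atf-7, a bZIP transcription factor gene, and 260 bp between cct-6 and ddx-23, an RNA helicase gene. Neighbours were taken only among protein-coding genes that do not overlap the member. At cct-7 the nearest such gene downstream, nphp-2 on the same strand, was 20277 bp away, and those of cct-1 and cct-4 are on the opposite strand. The gene T05C12.8 overlaps cct-1, and zig-11 overlaps cct-7.

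No call inside a gene body was in the reproducible set, and 1 was just under its limit. The long gene cct-5 held 9 pooled calls, the most of the 8 genes. Of all genes, whatever their length, 0.841% held at least as many. Per length of the gene body this was 1.01 calls per kb, below the 1.39 of cct-1 and above the 0.881 of cct-8, and the mean over all genes was 0.243. One of them, in an intron at chrIII:4504338-4504661, had a signal of 48.1 and rank 2346, against the lowest reproducible signal of 48.2 at rank 2333. In replicate 2 this call had a signal of 32.0 and rank 1887, above the promoter call of the same gene, and in replicate 1 the nearest call was 14.9 at rank 7612. Its q-value was under 0.05 in the pooled list and in replicate 2. In replicate 2 the same held for intron calls of cct-5 at ranks 3700 and 4037 and of cct-3 at rank 4291. The body of cct-8 held 6 pooled calls, the strongest of rank 5993, that of cct-3 held 4, the strongest of rank 4064 in an intron, and that of cct-1 held 3. A single pooled call lay in cct-6 and in cct-7, and none lay in cct-2 or cct-4. In the whole genome there were 0.299 pooled calls per kb.

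Words of cell cycle promoters were searched for, since LIN-13 is studied alongside repressors that act on them. In windows from 250 bp before to 50 bp after the 5′-most end, 0 of 8 members held an E2F-like word (TTCCCGCC, TTTCCCGC, TTCGCGCC, TTGGCGCC or TTCCCGCG, on either strand), against 3.32% of all promoters and 6.16% of those of the 1721 genes with a peak. None held the GC-box CCGCCC, against 7.81% of all promoters. All 8 held the CHR word TTTGAA or TTCGAA, which 68.9% of all promoters hold. The tract TTTTTTTT was found at 1 of 8, cct-2, against 32.5% of all promoters, and in 1 of the 7 summit windows, cct-8, against 14.3% of summits. In the summit windows the E2F-like words and the GC-box were again absent from all 7, against 6.77% and 9.39% of the 2333 reproducible summits. The CHR was in 3, cct-5, cct-6 and cct-8, all among the 5 windows under reproducible peaks, against 45.2% of the same summits.

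Heat shock element cores were common. These words are inverted repeats of GAA, a part of the elements bound by HSF-1, the heat shock transcription factor. A word alone does not mark an HSF-1 site, and HSF-1 binding was not measured. The word GAANNTTC was found in 5 of 8 promoters, cct-1, cct-3, cct-5, cct-7 and cct-8, against 18.5% of all promoters and 19.8% of those of genes with a peak. It was in 2 of the 7 summit windows, as GAATATTC 55 bp downstream of the cct-1 summit and GAATTTTC 46 bp downstream of the cct-8 summit, against 9.77% of reproducible summits. The other arrangement, TTCNNGAA, was added after the sequences were seen. Its counts, and those of either core, are therefore a description only. It was in 5 of 8 promoters, against 18.9% of all promoters, and in 5 of 7 summit windows, against 8.66% of summits. Its matches at the summits were TTCTAGAA at cct-4, cct-5 and cct-6 and TTCGAGAA at cct-2 and cct-7. Each of the 7 printed windows thus holds one or the other core, but those of cct-2 and cct-4 are not under reproducible peaks. Of the 5 that are, 3 held TTCNNGAA and 2 held GAANNTTC. All 5 held one or the other, against 15.9% of reproducible summits. In the promoter windows 7 of 8 members held either core, against 32.5% of all promoters. Promoter and summit windows overlap at some genes, so the summit matches of cct-1, cct-4, cct-6 and cct-7 are counted in both. Members with and without a reproducible peak both held them, cct-3 and cct-4 among the latter.

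**Figure D5:**
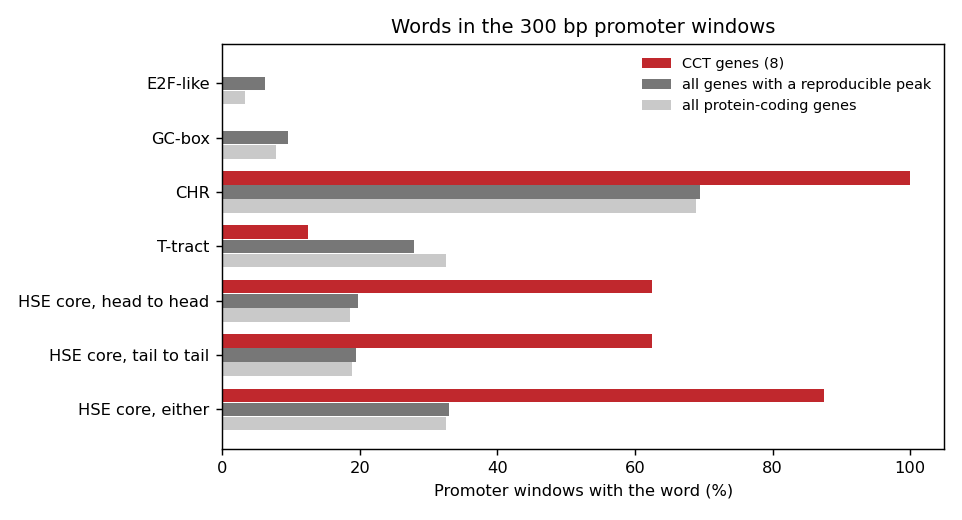
Percentage of promoter windows of 300 bp with each word for the 8 CCT genes (red), all 1721 genes with a reproducible peak (dark grey) and all protein-coding genes (light grey); HSE is the heat shock element. The CCT bars exceed both grey bars for the 3 heat shock element rows, at 62.5%, 62.5% and 87.5%, and for the CHR, held by all 8, and are at 0% for E2F-like words and the GC-box; the tail-to-tail and either-core rows were added after the sequences were seen.

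Longer words recurred at the summits of different members. They were picked after the sequences were seen, from 13 candidate words and a count of all words of 7 bases in the windows, so their recurrence is a description only. Each is written with the bases its sites share and N where they differ. The word GGGTCTCNNCACG lay close to the summit at cct-1 (GGGTCTCGGCACG, starting 3 bp downstream), at cct-4 (GGGTCTCGCCACG, spanning the summit from 5 bp upstream) and, on the opposite strand, at cct-6 (CGTGGTGAGACCC, ending 4 bp upstream). It was found in 29 of 2333 reproducible summit windows, 1.24%, and in 0.461% of all promoters. The word GACGCGCAANTG lay at cct-5 (GACGCGCAATTG) and cct-8 (GACGCGCAAATG), starting 48 and 51 bp upstream of the summit, and was found in 8 of 2333 summit windows, 0.343%. The first word is also at cct-4, where no reproducible peak was called, so members with and without a peak both hold it. The windows of the 5 members with a peak held from 35.8% GC at cct-6 to 51.7% at cct-7, against a median of 42.8% for all reproducible summits.

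Genes of protein folding gave mixed counts. The 42 genes in 7 lists were folding partners and clients of CCT, chaperones of other compartments and the transcription factor gene hsf-1. They are called folding partner genes below. Of them 17 had a reproducible peak within 500 bp, 40.5%, against 8.62% of all genes. Among all genes with a head-to-head neighbour the share was 24.4%, but how many of the 42 have one was not counted. Prefoldin, which passes unfolded actin and tubulin to CCT, had peaks at 4 of 6 genes. These were pfd-1 with a signal of 235, pfd-6 with 125, pfd-5 with 78.4 and pfd-3 with 75.7, while pfd-2 and pfd-4 had none. The cytosolic Hsp70 and Hsp90 list had 7 of 9, led by hsp-90 with 356, the Hsp70-family gene hsp-110 with 251, the J-domain co-chaperone gene dnj-13 with 227 and the constitutive Hsp70 gene hsp-1 with 214. The kinase co-chaperone gene cdc-37 and hsf-1 itself had none. Several of these summits also lie within 500 bp of a 5′ end of another gene: pfd-1 shares its summit with F01G4.6, hsp-90 with C47E8.4, and hsp-110 with the proteasome gene rpn-3.

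For chaperones of other compartments and for the clients, the lists are short, and 0 or 1 gene with a peak is near what 8.62% of all genes would give. In the mitochondrial and endoplasmic reticulum list 2 of 5 genes had a peak, hsp-3 with a signal of 359 and hsp-6 with 114, the latter sharing its summit with C37H5.5. The genes dnj-10 and hsp-4 had none, and nor did the mitochondrial chaperonin gene hsp-60, which was named after its values were seen. Of the tubulin genes 2 of 9 had a peak, tba-2 with 291 and tbb-1 with 81.1, whose summit is shared with rib-2, and ben-1 and mec-12 had none. Of the actin genes 1 of 5 had one, act-2 with 131, and act-1 and act-3 had none; near-identical actin and tubulin copies may share reads, so calls among them are uncertain. Among tubulin folding cofactors 1 of 4 had a peak, tbcd-1 with 61.3, and evl-20 and tbcb-1 had none. The WD40 proteins and cell cycle activators that CCT folds had 0 of 4, including fzr-1 and fzy-1. The differences between these lists and the chaperonin genes were not tested.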

How the data were processed

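The authors deposited lists of calls in narrowPeak layout, for each replicate, for both replicates pooled, and the reproducible set derived from them by irreproducible discovery rate, per the files' descriptions. The signal of a call is the authors' score against a control and was ranked only within a list. The deposited −log10 q-value was used only to count calls with q under 0.05. No source used here names the aligner, the peak caller or the depth.

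The ce11 lists were joined to protein-coding transcript 5′ ends (29314) of Ensembl release 115 on WBcel235, the ce11 assembly, with Python 3.11.15. Replicate calls were matched to pooled summits within 100 bp. Head-to-head means an opposite-strand 5′ end upstream within 1000 bp. The placement code was tested on simulated summits. No test was made: there is 1 group, and members are not replicates. Members and lists were chosen with earlier results of these data known. The genes named were all members, their neighbours, and in each partner list up to 4 with the highest signal and up to 2 alphabetically first without a peak. The added words were chosen after the sequences were read. Alternatives varied the window, peak set, 5′ ends, assignment, overlap, build and word window.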

Additional observations from a re-analysis of the deposited data

How the results depend on the processing

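No paired analysis was possible because there is 1 group and no test between samples. The count of 5 CCT genes fell to 1 with a window of 250 bp and to 0 with the nearest 5′ end only. It stayed within 1.5 times of 5 under the other alternatives run, and was 4 with the 1166 strongest peaks (cct-5 lost), 5 with windows of 1000 and 2000 bp and 7 with every pooled call. In the ce10 set all 5 peaks had a counterpart of the same chromosome and width with a signal within 0.1%, and cct-5 and cct-6 had 2 each. Distances to 5′ ends were not measured in ce10, so this shows only that such peaks are listed there. Leaving out a replicate gave 4 to 5 genes, and 5 in the gene body or within 2 kb. For the folding partner genes the count of 17 fell to 14 with the 1166 strongest peaks, against 4.94% of all genes. Without replicate 1 it was 19, against 8.43%, and without replicate 2 it was 17, against 8.34%. The share of members with a word changed between promoter and summit windows from 8 of 8 to 42.9% for the CHR, from 62.5% to 28.6% for GAANNTTC, from 25% to 42.9% for GGGTCTCNNCACG and from 0% to 28.6% for GACGCGCAANTG. The windows overlap only in part or not at all, and the cause was not tested. With a match distance of 250 bp, 7 in place of 5 promoter calls had a partner in replicate 1. Depth is unknown, so the absence of a call at cct-2, cct-3 and cct-4 means only that none reached the reproducible set. The alternatives for the folding partner genes, the head-to-head background and the words GGGTCTCNNCACG, GACGCGCAANTG and TTCNNGAA were chosen after seeing the data.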
